A study of Rattus norvegicus with 9 samples.

Results

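Synovial fibroblasts line the joint and supply its fluid and matrix, and the insulin-like growth factor (IGF) genes of these cells, from rat, are described here across 3 culture conditions. The genes were the rows with any of 10 gene symbols: the ligands Igf1 and Igf2, the receptors Igf1r and Igf2r, and the binding protein genes Igfbp2, Igfbp3, Igfbp4, Igfbp5, Igfbp6 and Igfbp7. All 10 were found among the 17298 genes of the table, and 8 were among the 11372 genes with a mean of at least 1 FPKM (mapped fragments divided by library size and transcript length) over the 9 libraries, which were the genes tested. Igf2 and Igfbp2 were below that level.

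Polyadenylated RNA was sequenced from wild-type (WT) cells in 3 groups of 3 libraries. The control group was in normal culture without the inflammatory cytokine IL-1β. The IL-1β group was in normal culture with IL-1β, and the co-culture group received IL-1β and was then kept in a transwell whose upper chamber held dermal fibroblasts and whose lower chamber held the synovial cells. Cells had been freed from tissue pieces by collagenase and DNase. Strain, age, dose and duration are not stated in the labels used here, and neither is the origin of replicates: they may be separate rats, separate dishes or repeats of 1 culture, and the p-values reflect only how far apart such libraries lie. None of the 3 groups was in co-culture without IL-1β. Effects of the dermal cells, the insert, the shared medium and any difference in time or in exposure to IL-1β cannot be told apart.

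IGF-I and IGF-II are secreted peptide hormones that drive growth and matrix synthesis, and IGF-I is a main anabolic factor for cartilage. They act through the type 1 IGF receptor, a tyrosine kinase that signals through insulin receptor substrates to PI3K and AKT, while the type 2 receptor, which also carries mannose 6-phosphate proteins to lysosomes, clears IGF-II from the cell surface. Binding proteins hold IGFs in the fluid and matrix around cells, and proteases such as pappalysin, encoded by Pappa, cut some of them and release the ligand.

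The summed FPKM per library was 679774 to 696329 in control, 718498 to 741810 with IL-1β and 704391 to 732278 in co-culture. Control libraries thus had the lowest sums. The sequencing depth is unknown, so the precision rests on the spread between libraries. All 8 fibroblast markers checked were in the table, and their summed level was 11363 to 11949 FPKM in control libraries, 5656 to 5868 with IL-1β and 9357 to 9591 in co-culture. That sum is carried by Vim and the collagen genes, and the list was not uniform. With IL-1β 6 of 8 were lower and 2 higher, where 31.2% and 20.5% of all tested genes were. The 2 higher were Pdpn, at 186 ± 1.24 FPKM in control and 348 ± 6.68 with IL-1β (limma adjusted p = 4.7e-10), and Pdgfra, at 148 ± 1.93 and 164 ± 5.22 FPKM (adjusted p = 0.0023). All 6 endothelial markers and both epithelial markers in the table stayed below 1 FPKM in every library, as did 4 of 8 macrophage markers (Csf1r, Cd163, Ptprc and C1qa). The other macrophage markers were low but present. The stimulus was visible in Il6, an IL-1-responsive cytokine gene, at 39.5 ± 2.66 FPKM in control, 1069 ± 42.3 with IL-1β and 106 ± 2.70 in co-culture (mean ± SD, n = 3, as for all levels below). Across the genes tested, rank correlations were 0.995 to 0.996 within groups and 0.958 to 0.991 between them.

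Igf1 was the IGF ligand gene these cells expressed, and its level differed between all 3 conditions. The control libraries stood at 100.21, 100.20 and 101.58 FPKM, the IL-1β libraries at 41.53, 39.50 and 42.35, and the co-culture libraries at 66.13, 64.48 and 65.75. No group overlapped another: IL-1β libraries were lowest, co-culture libraries were intermediate, and control libraries were highest. The IL-1β mean was 40.9% of control, a log2 fold change of -1.27 ± 0.03 (standard error; limma adjusted p = 2.3e-11), on the scale of log2(FPKM + 1) used for all fold changes here. In co-culture Igf1 was 1.59-fold above IL-1β alone (log2 fold change 0.66 ± 0.03, adjusted p = 1.7e-08) and still at 65.0% of control (-0.61 ± 0.03, adjusted p = 1.5e-07). In these bulk libraries fewer cells of a type and less RNA per cell cannot be told apart. The summed markers of other connective tissue cells moved the same way as Igf1, though not every marker did. The summed level of 7 chondrocyte markers was 203 to 217 FPKM in control, 26.4 to 28.8 with IL-1β and 85.6 to 88.3 in co-culture. That of 7 adipocyte markers was 773 to 817, 494 to 524 and 602 to 628 FPKM. Fabp4 carries most of the adipocyte sum, while Cfd was lowest in co-culture, at 156.3 ± 1.94, 144.5 ± 8.02 and 134.8 ± 8.63 FPKM. The sum of 7 pericyte and smooth muscle markers was 274 to 278 FPKM in control, 170 to 179 with IL-1β and 238 to 247 in co-culture. Its member Acta2 was at 158 ± 4.51, 59.0 ± 1.32 and 128 ± 4.15 FPKM. With IL-1β its member Pdgfrb was higher (limma adjusted p = 1.9e-05) and Myh11 did not pass (adjusted p = 0.78). None of these markers was at 0 in every library, and their part in the Igf1 result was not tested.

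Igf2, the fetal-type ligand gene, was close to absent by comparison. It was listed at 0.18, 0.25 and 0.23 FPKM in control, 0.13, 0.11 and 0.17 with IL-1β, and 0.16, 0.14 and 0.18 in co-culture. Igf2 control libraries lay above IL-1β libraries, but both overlapped the co-culture range. With no filter on low values, the Igf2 log2 fold change with IL-1β was -0.10 ± 0.03 (limma adjusted p = 0.038 over 17288 genes), at levels that the table gives to only 2 decimals.

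The receptor genes moved little. Igf1r, the signalling receptor, was at 9.26, 9.63 and 9.33 FPKM in control, 10.33, 9.97 and 10.08 with IL-1β, and 10.32, 11.02 and 11.00 in co-culture. Igf1r control libraries were the lowest, and the IL-1β and co-culture ranges met at 10.32 to 10.33. Igf1r did not pass with IL-1β (log2 fold change 0.10 ± 0.04, limma adjusted p = 0.083), though it did after median-of-ratios scaling (0.14, adjusted p = 0.021) and quantile normalization (0.13, adjusted p = 0.029). It was higher in co-culture than in control, 1.15-fold (0.18 ± 0.04, adjusted p = 0.013), a call that ended without control replicate 1 (0.17, adjusted p = 0.051) and without co-culture replicate 2 (0.16, adjusted p = 0.052).

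Igf2r, the clearance receptor, had levels of 76.04, 76.20 and 73.88 FPKM in control, 75.60, 71.93 and 74.99 with IL-1β and 80.06, 77.91 and 80.71 in co-culture. Control and IL-1β ranges of Igf2r overlapped, and the co-culture libraries lay above both. The Igf2r difference between co-culture and IL-1β was 1.07-fold (log2 fold change 0.10 ± 0.03, limma adjusted p = 0.019). That call was lost after median-of-ratios scaling (0.03, adjusted p = 0.38) and quantile normalization (0.08, adjusted p = 0.062), and when IL-1β replicate 2 was left out (0.08, adjusted p = 0.076). It was lost as well without co-culture replicate 1, at 0.10 with an adjusted p of 0.057, and without co-culture replicate 3, at 0.09 with an adjusted p of 0.062. With IL-1β against control the fitted Igf2r change was -0.02 ± 0.03 (adjusted p = 0.56).

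**Figure D1:**
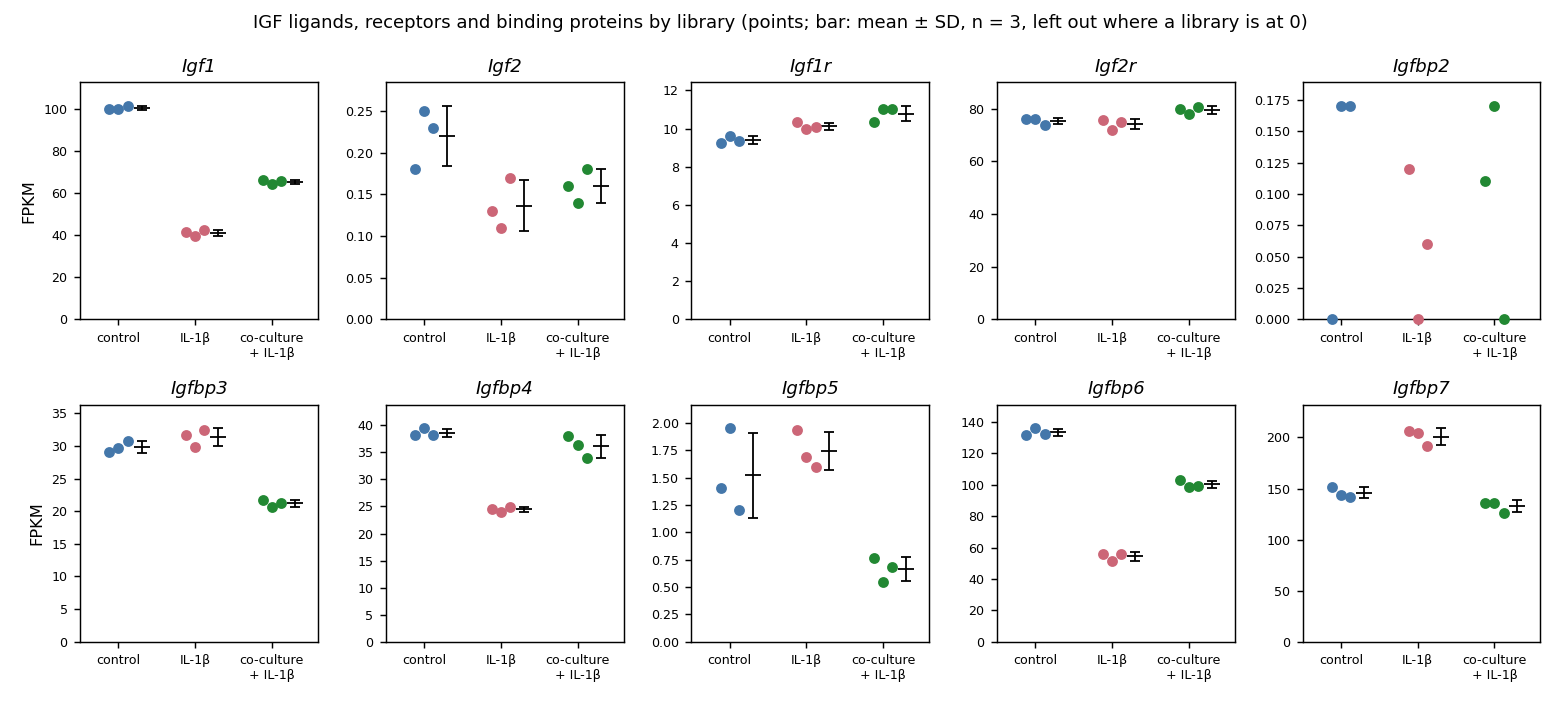
Level of each of the 10 genes in FPKM (vertical axes from 0, with a scale of their own) in the 9 libraries, coloured by condition; points are libraries and the black bar is the mean ± SD of 3, left out for Igfbp2, which is listed at 0 in a library of each group. Igf1, Igfbp6 and Igfbp4 are lowest with IL-1β, Igfbp7 is highest with IL-1β, and Igfbp3 and Igfbp5 are lowest in co-culture.

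The binding protein genes did not move together. Igfbp6 and Igfbp4 fell with IL-1β, Igfbp7 rose, and Igfbp3 and Igfbp5 were lower in co-culture than in either other group. Igfbp6 encodes a binding protein that prefers IGF-II. Its levels were 131.56, 135.93 and 132.56 FPKM in control, 56.19, 51.18 and 55.84 with IL-1β, and 102.91, 98.87 and 99.46 in co-culture. As with Igf1, the Igfbp6 groups were separate and co-culture lay between the others. The IL-1β mean of Igfbp6 was 40.8% of control (log2 fold change -1.28 ± 0.04, limma adjusted p = 1.1e-10). Igfbp6 was 1.85-fold higher in co-culture than with IL-1β alone (0.87 ± 0.04, adjusted p = 6.4e-09) and at 75.3% of control (-0.41 ± 0.04, adjusted p = 2e-05). The chondrocyte, adipocyte and pericyte marker sums given above moved the same way as Igfbp6 too, and their part in it was not tested.

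Igfbp4 encodes a soluble binding protein that is the best known substrate of pappalysin. Igfbp4 stood at 38.15, 39.41 and 38.24 FPKM in control, 24.61, 23.91 and 24.88 with IL-1β, and 38.10, 36.29 and 33.89 in co-culture. The IL-1β libraries were below all others, while the highest co-culture library came just under the lowest control library. Igfbp4 fell to 63.4% of control with IL-1β (log2 fold change -0.64 ± 0.04, limma adjusted p = 1.7e-07) and was 1.48-fold higher in co-culture than with IL-1β alone (0.54 ± 0.04, adjusted p = 1.1e-06). Against control, co-culture Igfbp4 did not pass (-0.10 ± 0.04, adjusted p = 0.14), but it did after quantile normalization (-0.14, adjusted p = 0.041).

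Igfbp7, whose product binds IGFs only weakly and is found in matrix and vessel walls, had the opposite pattern. It was at 151.91, 144.08 and 141.34 FPKM in control, 206.76, 204.01 and 191.76 with IL-1β, and 135.85, 136.31 and 126.48 in co-culture. The IL-1β libraries were the highest, and every co-culture library was below every control library. Igfbp7 rose 1.38-fold with IL-1β (log2 fold change 0.46 ± 0.04, limma adjusted p = 2.6e-06) and was at 66.2% of the IL-1β level in co-culture (-0.59 ± 0.04, adjusted p = 4.4e-07). The small difference of Igfbp7 between co-culture and control (-0.13 ± 0.04, adjusted p = 0.045) was lost under 8 of 17 alternatives, including the removal of control replicate 1 or 2, of IL-1β replicate 2 or of any co-culture library, with adjusted p-values over all 17 of 0.01 to 0.16. Some macrophage markers were also highest with IL-1β. Cd68 was at 2.30 ± 0.454, 4.77 ± 0.880 and 2.19 ± 0.439 FPKM in control, IL-1β and co-culture (limma adjusted p = 0.00054 for IL-1β against control), and Mrc1 at 0.653 ± 0.169, 1.54 ± 0.225 and 0.780 ± 0.0700. Adgre1 was at 0.487 ± 0.0306, 1.22 ± 0.302 and 0.897 ± 0.0451 FPKM, and its IL-1β and co-culture ranges met at 0.94. Cd163 was at 0.0333 ± 0.0153, 0.470 ± 0.104 and 0.183 ± 0.0907 FPKM. Mrc1, Adgre1 and Cd163 had means below 1 FPKM and were not tested. Other markers went down with IL-1β: Lyz2 from 10.65 ± 0.899 to 7.99 ± 0.398 FPKM (limma adjusted p = 0.0013) and Ptprc, also not tested, from 0.103 ± 0.0231 to 0.0667 ± 0.0231. The summed level of all 8 macrophage markers was 13.4 to 16.1 FPKM in control, 15.5 to 17.9 with IL-1β and 11.6 to 12.9 in co-culture. The sum of 5 synovial lining markers was 130 to 134, 325 to 331 and 171 to 179 FPKM in the same order. Prg4 carries that sum, while Has1 and Has2 were lower with IL-1β (limma adjusted p = 0.00048 and 0.002). The part of either list in the Igfbp7 result was not tested.

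The regions upstream of Igfbp6, Igfbp4 and Igfbp7 are shown because these binding protein genes changed with IL-1β, Igfbp6 and Igfbp4 downward and Igfbp7 upward. They are from RefSeq, build GRCr8, plus strand, and end at the base before the outermost annotated start. All 10 genes were matched by gene ID. Capitals mark matches, on either strand, to the letters listed after the sequences.
Igfbp6 (chr7:135154669-135154918): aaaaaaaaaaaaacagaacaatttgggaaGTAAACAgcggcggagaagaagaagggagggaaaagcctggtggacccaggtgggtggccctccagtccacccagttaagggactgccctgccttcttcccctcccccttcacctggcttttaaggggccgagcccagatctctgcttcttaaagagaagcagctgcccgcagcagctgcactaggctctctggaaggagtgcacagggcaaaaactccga
Igfbp4 (chr10:84491221-84491470): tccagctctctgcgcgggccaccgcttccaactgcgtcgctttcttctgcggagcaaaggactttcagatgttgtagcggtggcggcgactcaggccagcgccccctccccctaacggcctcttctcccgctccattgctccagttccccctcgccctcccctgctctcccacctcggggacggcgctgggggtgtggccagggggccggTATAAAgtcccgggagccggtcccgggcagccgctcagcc
Igfbp7 (chr14:31091486-31091680): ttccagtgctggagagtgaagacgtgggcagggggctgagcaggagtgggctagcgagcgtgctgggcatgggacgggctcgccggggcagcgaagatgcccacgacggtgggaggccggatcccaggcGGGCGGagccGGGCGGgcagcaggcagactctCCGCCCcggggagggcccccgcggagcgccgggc

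In the 250 bases before each start, 6 motifs were searched: the TATA box (TATAAA), the GC box (GGGCGG), the CCAAT box (CCAAT), AP-1 (TGANTCA), FOXO (GTAAACA) and the kappaB consensus of NF-kB. Igfbp6 held 1 FOXO match, at bases 30 to 36 counted from the 5′ end, which 3.21% of the 33469 windows of that length also held. Igfbp4 held 1 TATA box, at bases 211 to 216, found in 12.9% of windows. Igfbp7 held 4 GC boxes in a window of 74.4% G and C, and 30.5% of windows held at least 1 GC box. The windows of Igf1r, Igf2r and Igfbp2 and a window of Igf2 held the motif too. The last GC box of Igfbp7 runs past the printed stretch, which stops at base 195 because an annotated transcript starts after it. None of the windows of Igfbp6, Igfbp4 and Igfbp7 held the AP-1, CCAAT or kappaB letters, present in 6.34%, 34.0% and 3.54% of windows. That says only that these letters are not in these windows. For Igf1 the table's only start lies 2924 bases inside the annotated gene, so its window is not shown.

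Igfbp3, the gene of the main IGF carrier of blood plasma, did not pass with IL-1β but was lower in co-culture. Its levels were 28.99, 29.70 and 30.78 FPKM in control, 31.68, 29.88 and 32.47 with IL-1β, and 21.74, 20.58 and 21.28 in co-culture. Control and IL-1β ranges of Igfbp3 overlapped, and all co-culture libraries lay below both. The co-culture mean was 67.6% of IL-1β alone (log2 fold change -0.54 ± 0.04, limma adjusted p = 8.7e-07) and 71.1% of control (-0.47 ± 0.04, adjusted p = 1.1e-05). The IL-1β change of Igfbp3 was 0.07 ± 0.04 (adjusted p = 0.19), past the threshold only after median-of-ratios scaling (0.11, adjusted p = 0.031) among 17 alternatives.

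Igfbp5, which encodes a matrix-bound binding protein, followed the same order at a much lower level. It was listed at 1.41, 1.95 and 1.20 FPKM in control, 1.94, 1.69 and 1.60 with IL-1β, and 0.77, 0.55 and 0.68 in co-culture. The control and IL-1β libraries of Igfbp5 overlapped, and the co-culture libraries were all below them. Co-culture stood at 38.2% of the IL-1β mean (log2 fold change -0.72 ± 0.11, limma adjusted p = 0.00022) and at 43.9% of control (-0.59 ± 0.11, adjusted p = 0.0028). At this level the fitted size depends on the pseudocount: across the alternatives the co-culture change from IL-1β ranged from -1.27 to -0.25 and that from control from -1.06 to -0.20, with adjusted p-values of at most 0.0015 and 0.013. Igfbp5 was not tested with a mean of at least 5 FPKM. Igfbp2 was listed at 0, 0.17 and 0.17 FPKM in control, 0.12, 0 and 0.06 with IL-1β and 0.11, 0.17 and 0 in co-culture, and no fold is given for it.

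**Figure D2:**
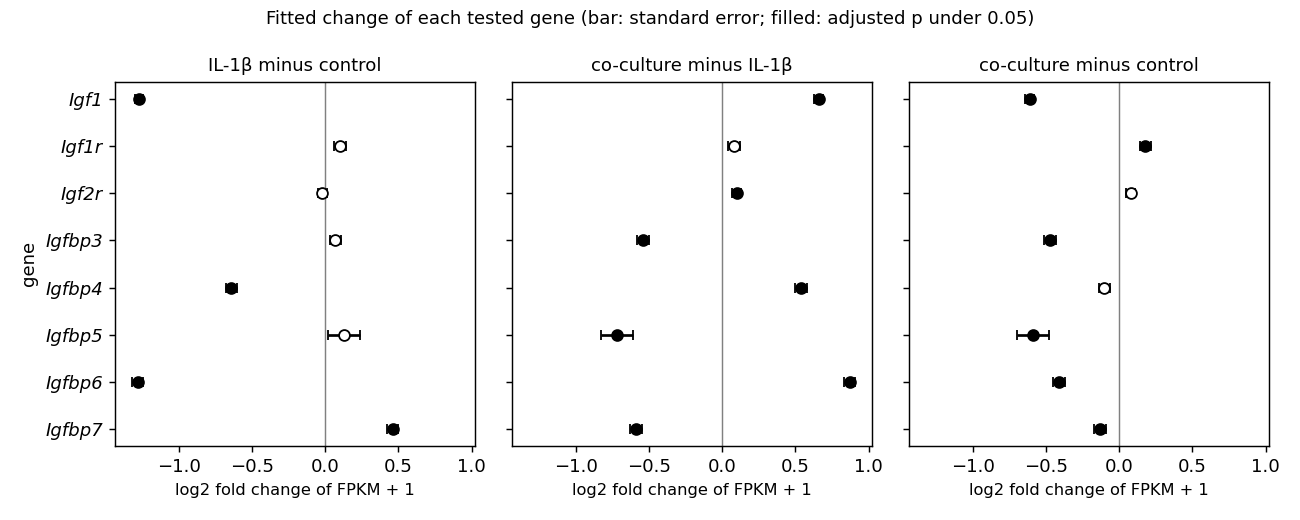
Fitted log2 fold change of FPKM + 1 (horizontal axis) for the 8 tested genes (rows) in the 3 comparisons (panels), with standard errors; filled points passed an adjusted p of 0.05. Igf1 and Igfbp6 have the largest falls with IL-1β, -1.27 and -1.28, and Igfbp3 and Igfbp5 lie left of 0 only in the panels with co-culture.

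Counted over the 8 tested genes, 1 was higher and 3 were lower with IL-1β than in control, against 20.5% higher and 31.2% lower among all 11372 genes (51.7% in either direction). Between co-culture and IL-1β alone, 4 were higher and 3 lower, against 33.3% and 16.7% of all genes (50.0% in either direction). The 4 became 3 after median-of-ratios scaling or quantile normalization, as Igf2r lost its call. Between co-culture and control, 1 was higher and 5 were lower, against 12.4% and 7.91% (20.3% in either direction). The IGF genes' medians were 0.02, 0.09 and -0.27 on the log2 scale and those of all genes -0.044, 0.062 and 0.018. The split of calls over all genes depended on scaling: with IL-1β 2330 genes were higher and 3544 lower, but 2887 and 2877 after median-of-ratios scaling. For co-culture against IL-1β the split was 3786 higher and 1901 lower, and 2721 and 2636 with that scaling. For co-culture against control it was 1408 and 899, then 1146 and 1073 with median-of-ratios scaling and 1008 and 1166 with quantile normalization. Each pair of these comparisons has a group of libraries in common, so their values are set side by side and not taken as independent of each other.

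The order of levels within the family changed with IL-1β. FPKM is scaled by transcript length, so levels of different genes can be ranked, within the limit that the reference used for alignment is uncertain. In control the order was Igfbp7, Igfbp6, Igf1, Igf2r, Igfbp4, Igfbp3, Igf1r, Igfbp5, Igf2 and Igfbp2, and no neighbours overlapped in range. With IL-1β Igf2r, at 74.2 ± 1.97 FPKM, stood above Igfbp6, at 54.4 ± 2.80, and Igf1, at 41.1 ± 1.47, while Igfbp3 stood above Igfbp4. In co-culture Igfbp6, at 100.4 ± 2.18 FPKM, was again above Igf2r, at 79.6 ± 1.47, but Igf1, at 65.5 ± 0.864, remained below Igf2r. Igf2 and Igfbp2 overlapped in range with IL-1β and in co-culture.

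The make-up of the binding protein transcripts shifted along with their sum. The summed FPKM of Igfbp2 to Igfbp7 was 352, 351 and 344 in the control libraries, 321, 311 and 307 with IL-1β and 299, 293 and 282 in co-culture, so the 3 groups did not overlap. Igfbp7 made up 41.7% ± 1.22 of that sum in control, 64.2% ± 1.57 with IL-1β and 45.6% ± 0.862 in co-culture. Igfbp6 made up 38.2% ± 0.716, 17.4% ± 0.873 and 34.5% ± 0.769 in the same order. The Igfbp4 share was 11.1% ± 0.197, 7.82% ± 0.253 and 12.4% ± 0.348, and the Igfbp3 share 8.54% ± 0.361, 10.02% ± 0.506 and 7.28% ± 0.262. Igfbp5 made up less than 1% of the sum in each group. These shares are a description, with no test over the sum.

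**Figure D3:**
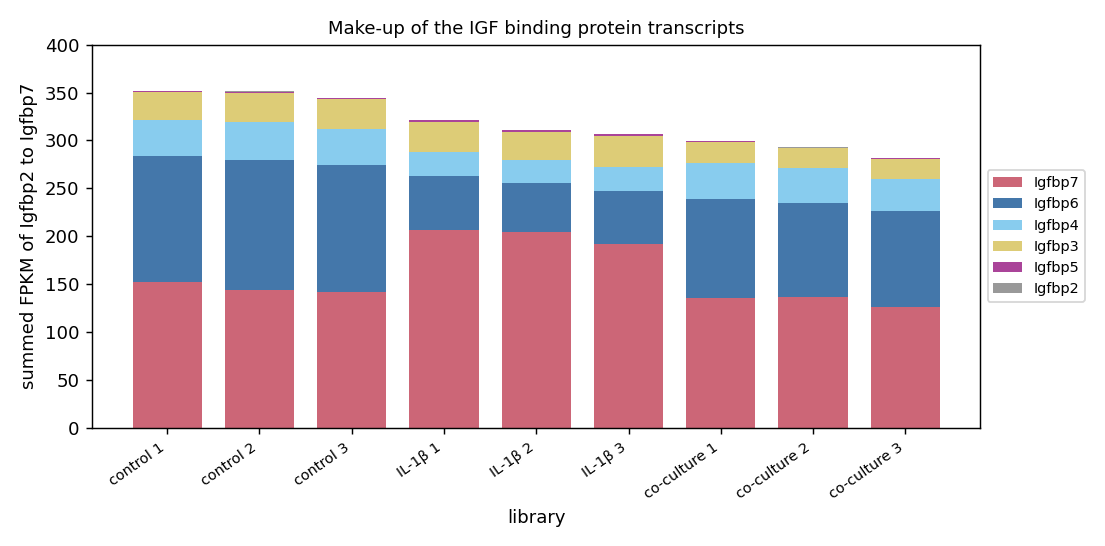
Summed FPKM of the 6 binding protein genes (vertical axis from 0) in each of the 9 libraries (horizontal axis), stacked by gene. The Igfbp7 block is tallest in the IL-1β libraries, at 192 to 207 FPKM, where the Igfbp6 block is 51.2 to 56.2 FPKM.

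Genes that control the release of IGFs from binding proteins were taken from a list of 8 proteases and protease inhibitors, of which 7 were tested. With IL-1β 3 were higher and 4 lower, where 20.5% and 31.2% of all genes were. Between co-culture and IL-1β alone 3 were higher and 3 lower, where 33.3% and 16.7% of all genes were. Pappa, the pappalysin gene, was at 6.02, 5.86 and 5.74 FPKM in control, 10.39, 10.76 and 10.90 with IL-1β and 7.73, 7.73 and 7.91 in co-culture. No Pappa libraries overlapped between groups. Pappa rose 1.82-fold with IL-1β (log2 fold change 0.77 ± 0.04, limma adjusted p = 3.6e-08) and was at 72.9% of that level in co-culture (-0.41 ± 0.04, adjusted p = 1.2e-05), still 1.33-fold above control (0.35 ± 0.04, adjusted p = 0.00015).

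Stc1 and Stc2 encode stanniocalcins, glycoproteins that block pappalysin. They changed in opposite directions. Stc1 was at 34.27, 33.73 and 34.52 FPKM in control, 213.72, 225.61 and 223.90 with IL-1β and 65.67, 69.22 and 68.82 in co-culture, so the IL-1β libraries stood far above the rest. Stc1 rose 6.47-fold with IL-1β (log2 fold change 2.66 ± 0.03, limma adjusted p = 4.4e-14), was at 30.7% of that level in co-culture (-1.69 ± 0.03, adjusted p = 5.3e-12) and remained 1.99-fold above control (0.97 ± 0.03, adjusted p = 3.5e-09). Stc2 fell from 27.6 ± 1.07 FPKM to 17.7 ± 1.51 with IL-1β (-0.61 ± 0.07, adjusted p = 1.5e-05) and was at 25.9 ± 2.16 in co-culture (0.52 ± 0.07 from IL-1β, adjusted p = 7.1e-05).

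The serine protease genes Htra1 and Htra3 were lower with IL-1β. Htra1, whose product cuts several matrix and binding proteins, was the most abundant gene of the list, at 577 ± 6.49 FPKM in control, 501 ± 11.2 with IL-1β and 581 ± 10.4 in co-culture (limma adjusted p = 9.9e-05 and 8.6e-05 for the first 2 comparisons). Htra3 went from 12.3 ± 0.768 to 6.26 ± 0.261 FPKM with IL-1β (log2 fold change -0.87 ± 0.08, adjusted p = 2.1e-06) and was at 9.90 ± 1.29 in co-culture. Adam12, a membrane metalloproteinase gene, went from 124 ± 0.653 to 142 ± 0.645 FPKM with IL-1β (0.19 ± 0.03, adjusted p = 6.6e-05) and was at 116 ± 1.87 in co-culture.

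**Figure D4:**
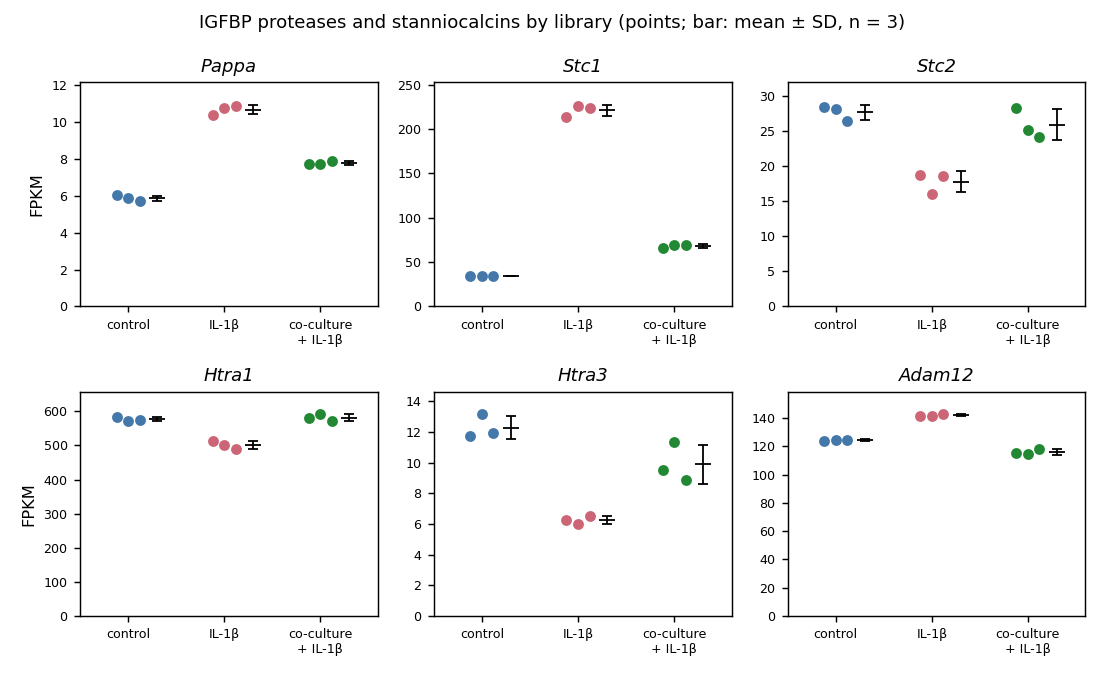
Level in FPKM (vertical axes from 0, with a scale of their own) of 6 IGFBP protease and stanniocalcin genes in the 9 libraries, coloured by condition; black bars are the mean ± SD of 3. Pappa and Stc1 are highest with IL-1β, at 10.39 to 10.90 and 213.72 to 225.61 FPKM, while Stc2, Htra1 and Htra3 are lowest there.

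Other IGF binding and Igf2 mRNA genes formed a list of 10, of which 7 were in the table and 5 were tested. With IL-1β 1 was higher and 2 lower, against 20.5% and 31.2% of all genes, and the 1 became 2 without co-culture replicate 2. Ghr, the growth hormone receptor gene, went from 24.5 ± 0.966 FPKM in control to 15.4 ± 0.778 with IL-1β and 18.1 ± 0.420 in co-culture. Its log2 fold changes were -0.64 ± 0.05 with IL-1β (limma adjusted p = 3.3e-07), 0.22 ± 0.05 in co-culture against IL-1β (adjusted p = 0.0021) and -0.42 ± 0.05 against control (adjusted p = 7.3e-05). Igf2bp2, an RNA-binding protein gene named for Igf2 mRNA, fell from 17.1 ± 0.733 to 13.0 ± 0.601 FPKM with IL-1β (adjusted p = 3.9e-05). Lrp1, an endocytic receptor gene, rose from 123 ± 4.40 to 155 ± 5.43 FPKM (adjusted p = 7.8e-06). In co-culture against IL-1β alone 2 genes of the list were higher and 1 lower, against 33.3% and 16.7% of all genes.

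Adaptors and substrates link the IGF and insulin receptors to their kinases. Of 10 tested receptor and adaptor genes 5 were higher and 2 lower with IL-1β (20.5% and 31.2% of all genes), and 1 was higher and 2 lower in co-culture against IL-1β (33.3% and 16.7% of all genes). The 2 lower with IL-1β became 1 without control replicate 3 or with a mean of at least 5 FPKM, and the 2 lower in co-culture became 4 after median-of-ratios scaling. Grb10, an adaptor that restrains insulin and IGF receptors, went from 88.3 ± 2.48 to 56.0 ± 1.10 FPKM with IL-1β (log2 fold change -0.65 ± 0.03, limma adjusted p = 9.9e-09). In co-culture Grb10 was at 74.3 ± 1.35 FPKM (0.40 ± 0.03 from IL-1β, adjusted p = 1.1e-06, and -0.25 ± 0.03 from control, adjusted p = 0.00023). Shc1, an adaptor of the Ras branch, rose from 117 ± 3.26 to 141 ± 2.06 FPKM with IL-1β (adjusted p = 1.7e-05).

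Of 19 tested PI3K, AKT and mTOR genes 6 were higher and 9 lower with IL-1β (20.5% and 31.2% of all genes), and 8 were higher and 6 lower in co-culture against IL-1β (33.3% and 16.7% of all genes). With a mean of at least 5 FPKM, which leaves fewer genes to test, 3 were higher with IL-1β and 3 lower in co-culture against IL-1β. The PI3K regulatory subunit gene Pik3r1 rose from 17.4 ± 1.74 to 27.9 ± 0.727 FPKM with IL-1β (log2 fold change 0.65 ± 0.06, limma adjusted p = 2.6e-06) and was at 22.6 ± 0.613 in co-culture. Deptor, an inhibitor of mTOR, fell from 5.46 ± 0.260 to 1.71 ± 0.115 FPKM with IL-1β (-1.25 ± 0.06, adjusted p = 1.1e-08) and was at 3.55 ± 0.178 in co-culture (0.75 ± 0.06 from IL-1β, adjusted p = 1.7e-06, and -0.51 ± 0.06 from control, adjusted p = 0.00016). The kinase gene Akt2 fell by 0.32 on the log2 scale (adjusted p = 1.5e-06). Akt1, the most abundant of the list, went from 199 ± 6.98 to 181 ± 8.27 FPKM (-0.13 ± 0.04, adjusted p = 0.012), a call lost after median-of-ratios scaling (-0.09, adjusted p = 0.084) and without IL-1β replicate 2 (-0.10, adjusted p = 0.053).

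FOXO factors are held out of the nucleus by AKT, and a list of 14 such factors and their known target genes had 10 tested members. With IL-1β 5 were higher and 4 lower (20.5% and 31.2% of all genes), and in co-culture against IL-1β 4 were higher and 4 lower (33.3% and 16.7% of all genes), so members of the list went both ways. Sesn3, a stress-response gene that restrains mTOR, went from 25.3 ± 0.657 to 11.3 ± 0.375 FPKM with IL-1β and 17.7 ± 0.805 in co-culture (limma adjusted p = 1.8e-09 and 6.3e-07). Txnip, a thioredoxin inhibitor gene, fell from 54.2 ± 1.12 to 34.8 ± 1.41 FPKM with IL-1β (adjusted p = 4e-08). Cited2, a transcriptional co-regulator gene, rose 2.54-fold to 127 ± 5.09 FPKM with IL-1β and was at 64.4 ± 1.42 in co-culture (adjusted p = 8.7e-11 and 2.8e-09), and Klf15 rose 2.04-fold to 11.4 ± 0.396 FPKM and was at 6.0 ± 0.208 in co-culture (adjusted p = 3.6e-08 and 1.5e-07).

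Over the 5 lists together, 51 genes were tested. With IL-1β 20 were higher and 21 lower, where 20.5% and 31.2% of all genes were. In co-culture against IL-1β 18 were higher and 16 lower, where 33.3% and 16.7% of all genes were. In co-culture against control 7 were higher and 9 lower, where 12.4% and 7.91% of all genes were, and the 9 became 5 without control replicate 2. Over all genes the 899 lower became 646 to 891 with a library left out. The medians of the 51 genes were 0.01, -0.02 and -0.01 on the log2 scale.

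**Figure D5:**
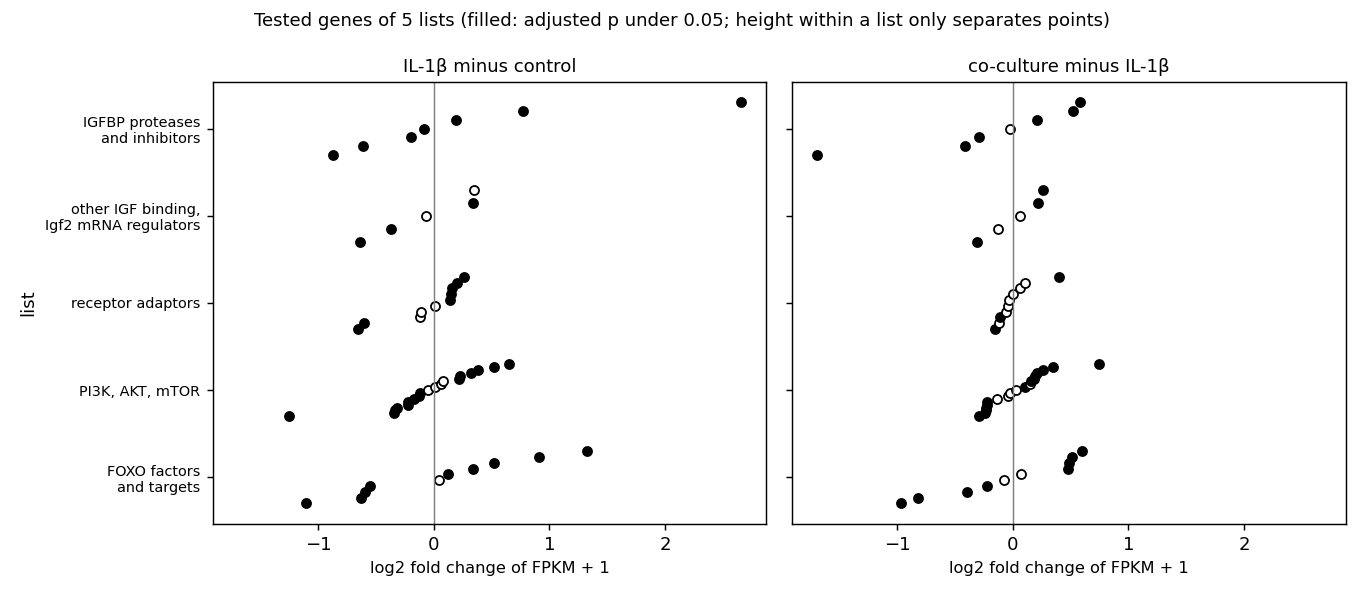
Log2 fold change of FPKM + 1 (horizontal axis) of the 51 tested genes in 5 lists (rows) with IL-1β against control and in co-culture against IL-1β (panels); filled points passed an adjusted p of 0.05. The point farthest right with IL-1β is Stc1, at 2.66, and the same gene is farthest left in co-culture, at -1.69.

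Likeness of pattern across the 9 libraries was described for Igf1 and Igfbp6, whose fitted log2 change reached 1 in size in at least 1 comparison. Among 6760 genes with a mean of at least 10 FPKM, those with the highest Pearson correlation to Igf1 on log2(FPKM + 1) were Clec11a (r = 0.9985), the cholesterol synthesis gene Sqle (r = 0.9983) and the cartilage collagen gene Col2a1 (r = 0.9979). Clec11a was at 21.4 ± 0.370 FPKM in control, 5.80 ± 0.551 with IL-1β and 11.9 ± 0.125 in co-culture, and Sqle at 82.0 ± 0.697, 54.3 ± 1.28 and 66.8 ± 1.11. The genes most like Igfbp6 were Ptgfrn (r = 0.9992), the lysyl oxidase gene Loxl3 (r = 0.9984) and Magi3 (r = 0.9984), with Loxl3 at 132 ± 1.28, 45.6 ± 0.836 and 95.7 ± 2.04 FPKM. The 9 points are 3 groups of 3 libraries, so such values mainly follow the order of the group means and carry no test.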

How the data were processed

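Polyadenylated RNA was sequenced from 9 libraries of rat synovial fibroblasts, 3 per group, grouped by their titles. The authors deposited FPKM values, 1 column per library with 2 decimals, per the file headers. Per the submitters' processing notes the build was GRCm38, a mouse build, while the rows carry rat gene IDs. Aligner, quantifier and annotation: not given in the sources used here. Which reference the reads were aligned to was not settled, and ranking 1 gene above another is therefore less sure than following 1 gene across libraries. Counts were not used here, and depth is unknown.

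Genes with a mean of at least 1 FPKM were kept. Values were transformed as log2(FPKM + 1), which understates changes of low genes, then fitted over all 9 libraries with limma 3.58.1 (R 4.3.3), 1 coefficient per group, with trend and robust moderation. P-values were two-sided and Benjamini-Hochberg adjusted over 11372 genes (threshold 0.05). Folds and percentages are ratios of mean FPKM. The fit was tested on simulated data.

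The genes and lists were chosen with earlier results of these data known. Named pathway genes came from those with the 4 smallest p-values in either of the first 2 comparisons or the 2 highest levels in each list. Alternatives were other pseudocounts, filters, scalings and moderation, a replicate block, and leaving out each library. Promoter sequences came from RefSeq, build GRCr8, with motif letters found by script.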

Additional observations from a re-analysis of the deposited data

How the results depend on the processing

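The 8 tested IGF genes were refitted under 17 alternatives in each of 3 comparisons, except Igfbp5, which had 16. Of 405 such fold changes, 385 kept their direction and side of the threshold, 15 lost the call, 4 gained it and 1 changed sign: Igf2r with IL-1β, 0.02 after median-of-ratios scaling. The calls of Igf1, Igfbp4, Igfbp6 and Igfbp7 with IL-1β, and of Igf1, Igfbp3, Igfbp4, Igfbp5, Igfbp6 and Igfbp7 in co-culture against IL-1β, held under every alternative run.

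Higher genes of the family with IL-1β numbered 1, but 3 with median-of-ratios scaling and 2 with quantile normalization. Over all genes the higher calls numbered 2330, 2887 and 2463 in the same fits. In co-culture against IL-1β the higher genes of the family numbered 4, but 3 with either of these scalings, where those over all genes numbered 3786, 2721 and 3199. In co-culture against control the 1 higher gene, Igf1r, became 0 to 1 with a library left out, and the 9 lower pathway genes 5 to 9. Over all genes the 1408 higher became 1004 to 1415 and the 899 lower became 646 to 891 in the same fits. Of 813 fold changes of 20 pathway genes picked for small p-values or high levels, 811 kept their call. These covered the first 2 comparisons for all 20 genes. For co-culture against control they covered only Pappa, Stc1, Ghr, Grb10, Pik3r1, Deptor, Sesn3 and Cited2. Calls nearer the threshold there, such as Htra3, Adam12 and Txnip (limma adjusted p = 0.021, 0.017 and 0.042), were not among them. The 811 do not speak for those calls or for the other listed genes. Of 7 tested protease-list genes 2 were higher and 3 lower in co-culture than in control, where 12.4% and 7.91% of all genes were. The 3 lower became 0 without control replicate 2 and 1 without co-culture replicate 1 or 2.

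A fit with the replicate number as a block gave 5858, 5708 and 2227 calls over all genes in the 3 comparisons, against 5874, 5687 and 2307, and changed no call of the IGF family. Same-numbered libraries had correlations of deviations from -0.06 to 0.34, over genes whose mean log2(FPKM + 1) was above that of 10 FPKM. The 2 of 9 pairs over 0.1 were both control with co-culture, replicate 2 at 0.34 and replicate 3 at 0.24. Most like their own number in both other groups were 3 of 9 libraries, and the numbers were not taken to pair the samples. Of 10 tested FOXO-list genes 1 was higher and 2 lower in co-culture than in control, where 12.4% and 7.91% of all genes were. The 2 lower became 1 under the block, but also with no filter on low values and without trend and robust moderation. They became 1 as well when IL-1β replicate 2 or any control or co-culture library was left out.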
